A study of Mus musculus with 4 samples.

Results

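*Il9r* and *Rhbdf1* are close neighbors on mouse chromosome 11, and the genes described here are this pair and 6 genes near it, *Snrnp25*, *Mpg*, *Nprl3*, *Hba-x*, *Hba-a1* and *Hba-a2*. These are 8 of the 41214 genes in the count table. *Il9r* and *Rhbdf1* were selected because their counts were higher in MIZ-1 △POZ than in MIZ-1 WT in these same libraries, so their values are given as a description with no test. The other 6 genes were selected by position, and the 5 of them with enough counts were tested within the whole table.

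RNA-seq was performed on B220+ splenocytes, with 2 libraries per genotype that the paper's methods call biological replicates. MIZ-1 △POZ mice carried the *Miz-1 floxPOZ* allele and MB1-Cre, a Cre recombinase made under control of the B cell gene *Cd79a*. In B cells this recombinase is meant to cut out the part of the allele that encodes the POZ domain. The MIZ-1 WT samples are labelled as wild type with no further allele named, and all lines had a C57BL/6 background. The mice were young adults, red cells of the spleen were lysed, and cells that carried B220 were kept on magnetic beads, which can also hold other cells that display B220 or stick to the beads.

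Counts on genes summed to 44452007 and 43026814 in the MIZ-1 WT libraries and to 46387209 and 43214303 in the MIZ-1 △POZ libraries. Levels are given in CPM, counts scaled to library size with the TMM method of edgeR, and replicate 1 is named before replicate 2 throughout. *Zbtb17*, which encodes MIZ-1, had 47.8 and 46.3 CPM in MIZ-1 WT and 37.3 and 38.0 CPM in MIZ-1 △POZ. Counts over the whole gene do not show whether the POZ exons were lost, so they do not check the labels. The pan-B cell markers summed to 16002.5 and 16357.9 CPM in MIZ-1 WT and to 14012.2 and 14618.1 CPM in MIZ-1 △POZ, led by *Ms4a1*, and none of the 12 was absent. *Xist*, the RNA of the inactive X chromosome, had 1.12 and 1.43 CPM in MIZ-1 WT and 801 and 930 CPM in MIZ-1 △POZ. The Y-linked gene *Ddx3y* had 363 and 354 CPM in MIZ-1 WT and 14.3 and 14.2 CPM in MIZ-1 △POZ, and of the 5 sex-linked genes *Xist* rose and the 4 Y-linked genes fell. Sex and genotype therefore cannot be told apart in any comparison of these libraries.

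The IL-9 receptor pairs the chain encoded by *Il9r* with the common gamma chain, and on binding IL-9 it signals through JAK1 and JAK3 to STAT proteins. It is known from mast cells, T cells and subsets of B cells. *Rhbdf1* encodes iRhom1, a rhomboid-like protein without protease activity that helps ADAM17, the sheddase of TNF and of EGF receptor ligands, to mature. The genes beyond them encode a protein of the minor spliceosome (*Snrnp25*), a DNA glycosylase that starts base excision repair (*Mpg*), a subunit of the GATOR1 complex that restrains mTORC1 (*Nprl3*) and the alpha-globins (*Hba-x* in the embryo, *Hba-a1* and *Hba-a2* in the adult). Enhancers of the alpha-globin genes lie within introns of *Nprl3*, and in red cell precursors they act on several genes of this neighborhood.

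In the GENCODE annotation of GRCm38, *Il9r* lies on the minus strand of chromosome 11 from 32187541 to 32200279. *Snrnp25* follows on the plus strand from 32205415 to 32208984, and *Rhbdf1* on the minus strand from 32209585 to 32222300, only 600 bases beyond it. *Nprl3* runs on the minus strand from 32225628 to 32267707, and *Mpg* lies inside this span on the plus strand from 32226505 to 32232700. *Hba-x* (32276400 to 32278116), *Hba-a1* (32283511 to 32284465) and *Hba-a2* (32296489 to 32297298) follow on the plus strand. *Hbq1b*, between *Hba-a1* and *Hba-a2*, and *Hbq1a*, beyond *Hba-a2*, are theta-globin genes that were not among the 8, had 0 or 1 count per library and are named after their values were seen. In GENCODE, *Mpg* and *Nprl3* share 1340 exonic bases on opposite strands. That is 35.7% of the exonic bases of *Mpg* and 17.7% of those of *Nprl3*. In RefSeq *Nprl3* spans only 32231963 to 32267707 and *Mpg* 32226505 to 32232702, so *Mpg* does not lie inside *Nprl3* there. The strand setting of the counting was not given in the sources used here, so the values of both genes are uncertain to the extent of their overlap.

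*Il9r* had 5808 and 6175 counts in MIZ-1 WT and 34247 and 31136 counts in MIZ-1 △POZ. Scaled to library size, the MIZ-1 WT libraries had 133 and 147 CPM and the MIZ-1 △POZ libraries 720 and 709 CPM. Both MIZ-1 △POZ libraries were thus far above both MIZ-1 WT libraries, and *Il9r* was already well covered in MIZ-1 WT. Mean levels were 140 ± 9.74 CPM (SD, n = 2) and 714 ± 7.17 CPM (SD, n = 2), a 5.10-fold difference. The log2 fold change of 2.35 (standard error 0.06) is a value on which the gene was selected. By level in MIZ-1 WT, *Il9r* ranked 1600 of the 14554 tested genes, and by level in MIZ-1 △POZ it ranked 134.

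*Rhbdf1* had 790 and 865 counts in MIZ-1 WT and 3414 and 3207 counts in MIZ-1 △POZ, or 18.1 and 20.6 CPM against 71.7 and 73.1 CPM. The genotypes did not overlap, as in 74.8% of all tested genes, and the replicates of each genotype lay close together. The means were 19.3 ± 1.75 CPM (SD, n = 2) and 72.4 ± 0.947 CPM (SD, n = 2), a 3.74-fold difference with a log2 fold change of 1.90 (standard error 0.08), again a value on which the gene was selected. In a bulk sample, more cells that express a gene and more RNA of it per cell cannot be told apart, for these genes or for any other named here.

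*Snrnp25*, which lies between them, had 919 and 1144 counts in MIZ-1 WT and 2294 and 2036 counts in MIZ-1 △POZ, or 21.1 and 27.2 CPM against 48.2 and 46.4 CPM. Its lowest MIZ-1 △POZ library was above its highest MIZ-1 WT library, and the MIZ-1 WT replicates differed more from each other than the MIZ-1 △POZ replicates did. *Snrnp25* rose 1.96-fold, which is 0.97 on the log2 scale (standard error 0.12), and passed the edgeR quasi-likelihood test with Benjamini-Hochberg adjustment (adjusted p = 0.0034).

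*Mpg* had 1197 and 1234 counts in MIZ-1 WT and 1909 and 1825 counts in MIZ-1 △POZ, or 27.4 and 29.4 CPM against 40.1 and 41.6 CPM. The genotypes did not overlap, as in 74.8% of all tested genes, and the difference was smaller than for *Snrnp25*. *Mpg* rose 1.44-fold, or 0.52 on the log2 scale (standard error 0.07), with an adjusted p of 0.00331 (edgeR quasi-likelihood, Benjamini-Hochberg).

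*Nprl3* had 1259 and 1243 counts in MIZ-1 WT and 1420 and 1435 counts in MIZ-1 △POZ, or 28.9 and 29.6 CPM against 29.8 and 32.7 CPM. All 4 libraries lay in a narrow range, and the lowest MIZ-1 △POZ library was barely above the highest MIZ-1 WT library. At 0.10 on the log2 scale (standard error 0.07, 95% interval -0.08 to 0.28), *Nprl3* did not pass the threshold (adjusted p = 0.324, edgeR quasi-likelihood, Benjamini-Hochberg). The interval leaves room for a small difference, but its upper end lies below the lower end for *Mpg*, which is 0.36.

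Of the 5 genes that were selected by position and had enough counts to be tested, 2 rose (*Snrnp25* and *Mpg*) and none fell. The genotypes did not overlap for 60% of these genes, against 74.8% of all tested genes. Among all 14554 tested genes, 21.1% rose, 18.9% fell and 40% did either, so a share of this kind is common in these libraries and says little about the neighborhood by itself. These background counts depend on the MIZ-1 WT libraries. The 3076 genes that rose became 1374 without MIZ-1 WT replicate 1 and 1728 without MIZ-1 WT replicate 2, and the 2746 that fell became 848 and 1115. *Snrnp25* and *Mpg* passed the threshold with each library left out in turn, and without MIZ-1 △POZ replicate 1 the genes selected by position that rose became 4, with *Hba-a1* and *Hba-a2* added.

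**Figure D1:**
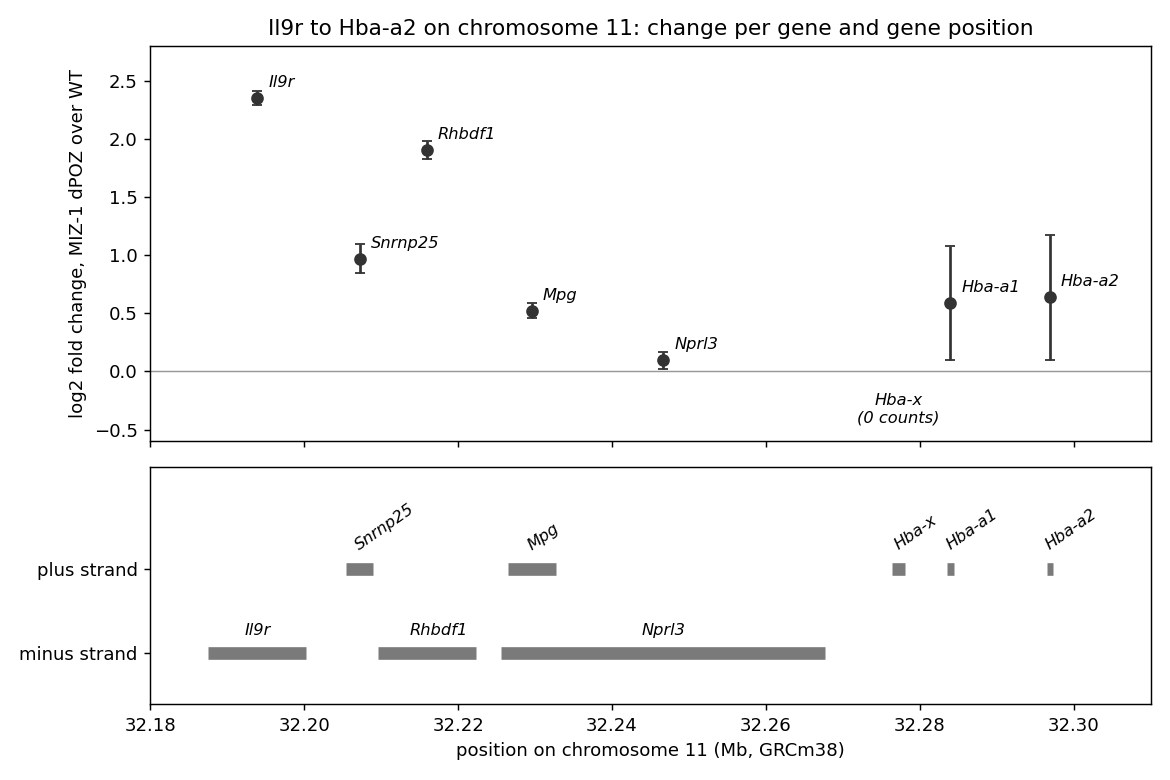
Log2 fold change of MIZ-1 △POZ over MIZ-1 WT (upper panel, points with standard errors as bars, 2 libraries per genotype) above the position and strand of each gene on chromosome 11 in Mb of GRCm38 (lower panel). *Il9r* (2.35) and *Rhbdf1* (1.90) stand highest, *Snrnp25* (0.97) and *Mpg* (0.52) lie between them and *Nprl3* (0.10), and the globin genes have wide errors.

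**Figure D2:**
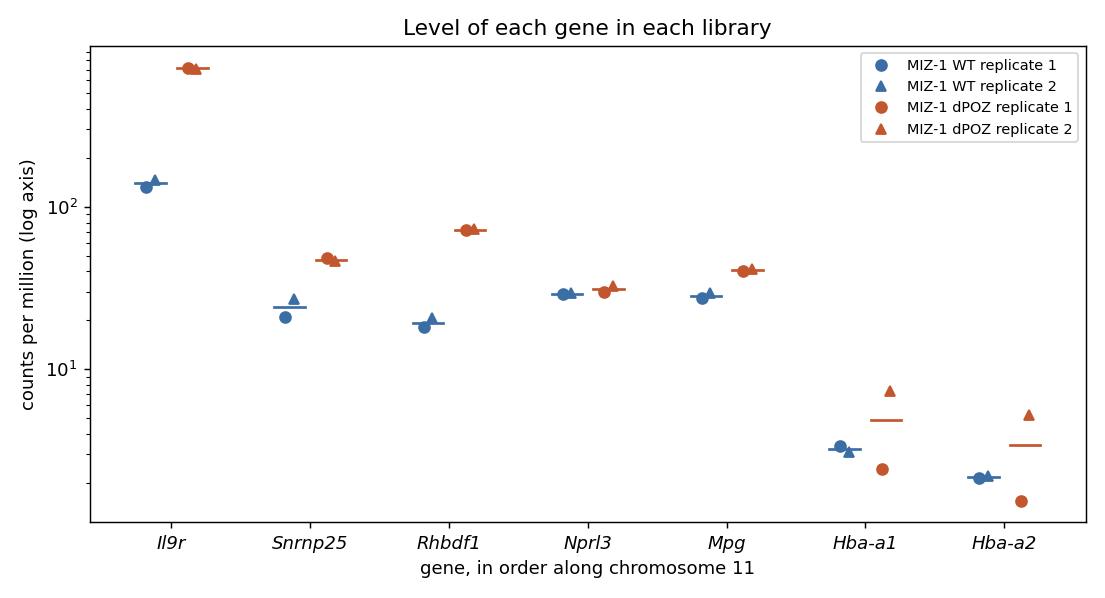
Level of each gene but *Hba-x*, which had no counts, in each library in CPM on a log axis, in order along chromosome 11, with circles for replicate 1, triangles for replicate 2 and a line at the mean of each genotype. The replicates of *Il9r*, *Rhbdf1* and *Mpg* lie close together within each genotype, whereas the MIZ-1 △POZ replicates of *Hba-a1* (2.42 and 7.36 CPM) and *Hba-a2* (1.55 and 5.24 CPM) lie on either side of MIZ-1 WT.

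The adult alpha-globin genes lie at the far end of the row from *Il9r*. *Hba-a1* had 147 and 131 counts in MIZ-1 WT and 115 and 323 counts in MIZ-1 △POZ, or 3.37 and 3.12 CPM against 2.42 and 7.36 CPM. *Hba-a2* had 94 and 92 counts in MIZ-1 WT and 74 and 230 counts in MIZ-1 △POZ, or 2.15 and 2.19 CPM against 1.55 and 5.24 CPM. For both genes MIZ-1 △POZ replicate 2 was the highest library and MIZ-1 △POZ replicate 1 the lowest, so the genotypes overlapped. Neither passed the threshold (edgeR quasi-likelihood, Benjamini-Hochberg), with log2 fold changes of 0.59 (standard error 0.49, adjusted p = 0.381) for *Hba-a1* and 0.64 (standard error 0.54, adjusted p = 0.382) for *Hba-a2*. Both 95% intervals (-0.63 to 1.80 and -0.69 to 1.96) hold the values of *Snrnp25* and *Mpg*, so no difference from these genes is shown. Summing the counts of both genes gave 0.61 (adjusted p = 0.37, edgeR quasi-likelihood test with Benjamini-Hochberg adjustment).

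These values turned on the MIZ-1 △POZ libraries. Without MIZ-1 △POZ replicate 2 the log2 fold changes were -0.40 for *Hba-a1* and -0.46 for *Hba-a2*. Without MIZ-1 △POZ replicate 1 they were 1.19 and 1.28, and both then passed the threshold (adjusted p = 0.00272 and 0.00412, edgeR quasi-likelihood test with Benjamini-Hochberg adjustment). Across the alternatives the adjusted p of *Hba-a1* ranged from 0.00272 to 0.595 and that of *Hba-a2* from 0.00412 to 0.581. *Hba-x*, the embryonic gene, had 0 counts in all 4 libraries, which allows up to 3 counts per library, or 0.063 to 0.0714 CPM, for counting error only.

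*Hba-a1* and *Hba-a2* are nearly the same gene. Of the 50-base words in their longest annotated transcripts, 67.5% in *Hba-a1* and 86.9% in *Hba-a2* also occur in the other gene, and reads from such stretches have no unique place. Reads without a unique alignment made up 42.8% to 44.1% of each library in the table. The split of counts between the copies, and the level of each, are therefore uncertain. The ratio of *Hba-a1* to *Hba-a2* was nevertheless steady, at 1.56 and 1.42 for the MIZ-1 WT libraries and 1.55 and 1.40 for the MIZ-1 △POZ libraries.

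The partner chains of alpha-globin followed the same libraries. *Hbb-bs*, an adult beta-globin gene on another chromosome, had 31.5 and 39.1 CPM in MIZ-1 WT and 25.0 and 71.3 CPM in MIZ-1 △POZ, and *Hbb-bt* had 7.63 and 10.3 CPM against 6.05 and 16.1 CPM. Here too MIZ-1 △POZ replicate 2 was highest and MIZ-1 △POZ replicate 1 lowest. The summed CPM of *Hba-a1* and *Hba-a2* was 14.1% and 10.7% of that of *Hbb-bs* and *Hbb-bt* in the MIZ-1 WT libraries and 12.8% and 14.4% in the MIZ-1 △POZ libraries, so the ratio stayed within a narrow range while the sums did not. These ratios are of counts that both pairs of copies can lose to reads without a unique place, and they are not ratios of RNA. Of the 5 genes of the beta-globin locus 3 were tested and 1 rose, the embryonic gene *Hbb-bh1*, with 0.298 and 0.214 CPM in MIZ-1 WT and 0.883 and 1.37 CPM in MIZ-1 △POZ. This difference was 2.12 on the log2 scale (adjusted p = 0.00953, edgeR quasi-likelihood, Benjamini-Hochberg), and it missed the threshold without MIZ-1 WT replicate 2. Without MIZ-1 △POZ replicate 1 all 3 rose, and without MIZ-1 △POZ replicate 2 *Hbb-bs* fell (-0.48 on the log2 scale, against 1.02 without replicate 1), so *Hbb-bs* passed the threshold in either direction depending on the library left out. Over all tested genes 21.1% rose. The embryonic genes *Hbb-y* and *Hbb-bh2* had 0 counts in all 4 libraries.

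Of 18 erythroid markers, 14 were tested, 3 rose (*Epor* and *Ermap* among them) and 2 fell (*Slc25a37* and *Tfrc*), close to the 21.1% of all tested genes that rose and the 18.9% that fell. In 11 of the 14, MIZ-1 △POZ replicate 2 was the highest of the 4 libraries, which it was for 3065 of the 14554 tested genes. *Epor*, the erythropoietin receptor, had 0.642 and 0.595 CPM in MIZ-1 WT and 3.13 and 2.55 CPM in MIZ-1 △POZ, and was thus high in both MIZ-1 △POZ libraries, unlike the globins. The whole list summed to 368 and 349 CPM in MIZ-1 WT and to 254 and 287 CPM in MIZ-1 △POZ, most of it from *Slc25a37*, the mitochondrial iron carrier, and no listed marker with a row in the table was at 0 in every library. Without MIZ-1 △POZ replicate 1, 10 markers rose, and without any other library only *Epor* did, while *Tfrc* missed the threshold without either MIZ-1 WT library. The part of red cell RNA in the levels of the alpha-globin genes was not tested.

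**Figure D3:**
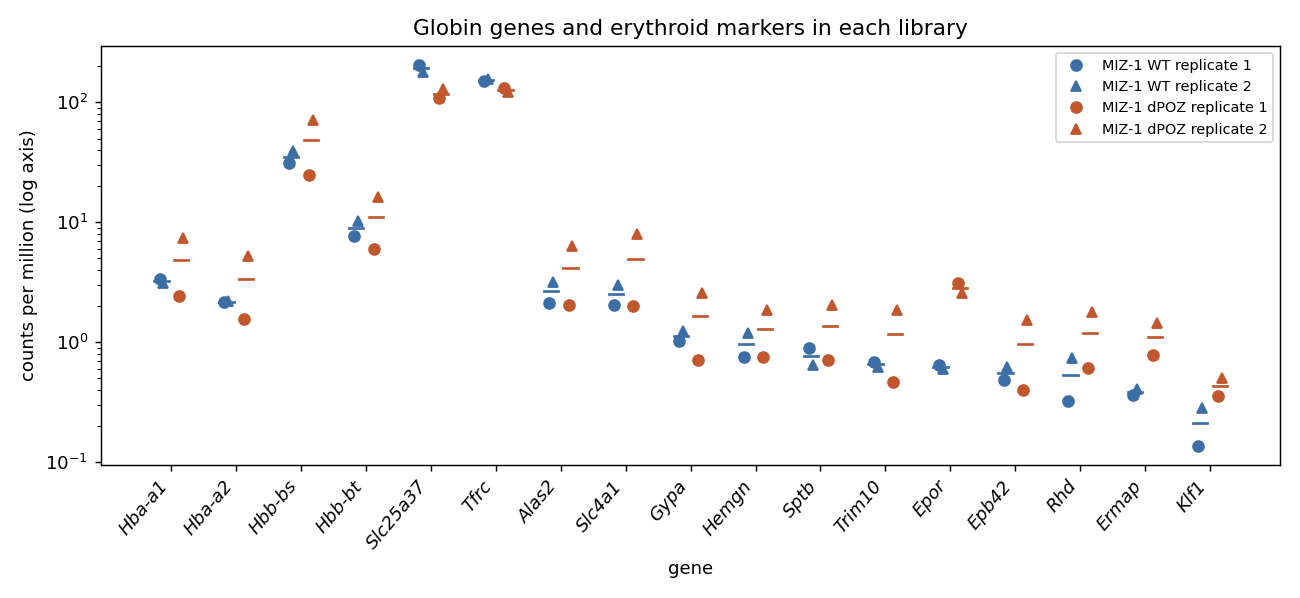
Level in each library, in CPM on a log axis, of the adult globin genes and of 13 of the 14 tested erythroid markers. Circles stand for replicate 1 and triangles for replicate 2, with a line at the mean of each genotype. MIZ-1 △POZ replicate 2 is the highest library for all 4 globin genes and for most of the markers shown.

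Levels can be compared between genes only per length, here as CPM per kb of merged exons. In MIZ-1 WT *Il9r* (28.3 ± 1.97, SD, n = 2) and *Snrnp25* (23.2 ± 4.18, SD, n = 2) had the highest values by this length, with 26.9 CPM per kb in the lowest *Il9r* library and 26.1 in the highest *Snrnp25* library. *Mpg* followed at 7.57 ± 0.362 CPM per kb (SD, n = 2). *Hba-a1* (3.99), *Nprl3* (3.86), *Rhbdf1* (3.56) and *Hba-a2* (3.26) formed a low group in CPM per kb, in which neighbors in the order overlapped within their SD. By single libraries, the lowest of *Nprl3* (3.81) was just above the highest of *Rhbdf1* (3.79). The lowest of *Rhbdf1* (3.33) was just above the highest of *Hba-a2* (3.28). In MIZ-1 △POZ the order was *Il9r* at 144 ± 1.45 CPM per kb, *Snrnp25* at 45.4 ± 1.23, *Rhbdf1* at 13.3 ± 0.174 and *Mpg* at 10.9 ± 0.277 (SD, n = 2 each). Below them, *Nprl3* at 4.13 ± 0.267 CPM per kb (SD, n = 2) lay within the spread of *Hba-a1* (6.02 ± 4.30) and *Hba-a2* (5.09 ± 3.91). These orders depend on the length used. Per kb of 50-base words unique to a gene, a length added after the data were seen, *Mpg* was above *Rhbdf1* in all 4 libraries. This length is taken from the longest annotated transcript alone, while the counts are those of all exons. It gave *Mpg* 1964 words against 3752 bases of merged exons, and *Rhbdf1* 5040 against 5433. Of the words, 93.8% were unique in *Mpg* and 100% in *Rhbdf1*. Per kb of unique words *Hba-a2* had 32.7 and 33.2 CPM in MIZ-1 WT, beside 30.2 and 33.3 for *Il9r* and 27.3 and 35.3 for *Snrnp25*. These 3 genes then overlapped and the globin genes formed no low group, but this cannot settle their place. Only 66 words of *Hba-a2* and 211 of *Hba-a1* are unique, while their counts are those of the whole gene. Reads were paired, so a read in a shared stretch can still be placed by the other read of its pair, and this length can be too short.

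The neighborhood was also followed for 1 Mb on either side. Outside the 8 genes, 10 genes of this window were tested, of which 1 rose and 1 fell, against 21.1% and 18.9% of all tested genes, with a median log2 fold change of 0.09 against -0.0064 for all tested genes. *Npm1*, which encodes nucleophosmin, had 601 and 592 CPM in MIZ-1 WT and 809 and 764 CPM in MIZ-1 △POZ (log2 fold change 0.40, adjusted p = 0.00373, edgeR quasi-likelihood test with Benjamini-Hochberg adjustment). *Stk10*, a kinase of lymphocytes, had 295 and 288 CPM in MIZ-1 WT and 225 and 263 CPM in MIZ-1 △POZ (log2 fold change -0.26, adjusted p = 0.0465, edgeR quasi-likelihood test with Benjamini-Hochberg adjustment). The fall of *Stk10* missed the threshold without either MIZ-1 WT library and without MIZ-1 △POZ replicate 1, and also with the replicate number as a block (adjusted p = 0.056, edgeR quasi-likelihood, Benjamini-Hochberg, from 0.00207 to 0.188 over the alternatives). No tested gene of the window lies between *Hba-a2* and *Ubtd2*, which starts at 32455370, and on the other side *Nsg2*, ending at 32059202, is the nearest tested gene to *Il9r*. The values of both, and of the other tested window genes not named here, did not pass the threshold.

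Among 12287 tested protein-coding genes outside the Y chromosome, the profile over the 4 libraries nearest to that of *Il9r* was measured as the root mean square difference of log2 CPM centred on each gene. The nearest were *Lrrn3* (0.05), *Usp2* (0.05), *Mef2b* (0.06), *Thnsl2* (0.06) and *Fstl1* (0.06), none of them on chromosome 11, and *Rhbdf1* ranked 100 at 0.23. For *Rhbdf1* the nearest were *Jph1* (0.03), *Melk* (0.04), *Smyd2* (0.05), *Tmtc1* (0.05) and *Gpr34* (0.07), and *Il9r* ranked 280. Several of these genes are weakly expressed, as *Usp2* with 0.0459 and 0.0476 CPM in MIZ-1 WT, and the prior count of 2 in log2 CPM pulls their libraries together. Their fitted log2 fold changes can differ more than these profiles do, with 3.11 for *Usp2* beside 2.35 for *Il9r*.

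Genes that act with *Il9r* rose in some cases and fell in others. Over the tested genes of the signaling list that follows, log2 fold changes ran from -1.63 to 1.36, and the gene with the lowest is not named here. Of 16 genes of IL-9 receptor signaling, 15 were tested, 7 rose and 2 fell (4 to 7 and 1 to 2 with each library left out in turn), beside the 21.1% of all tested genes that rose and the 18.9% that fell, with a median log2 fold change of 0.17. *Il2rg*, the common gamma chain with which the *Il9r* product pairs, had 164 and 163 CPM in MIZ-1 WT and 126 and 135 CPM in MIZ-1 △POZ. Its fall by 0.32 on the log2 scale (adjusted p = 0.00639, edgeR quasi-likelihood test with Benjamini-Hochberg adjustment) ran opposite to the difference in *Il9r*, and it missed the threshold without either MIZ-1 WT library. *Jak3*, the kinase bound to the gamma chain, rose from 61.7 and 62.1 CPM to 91.3 and 86.2 CPM, and *Jak1* had 507 and 503 CPM against 450 and 507 CPM. Among genes that STAT proteins are known to induce, *Pim1* rose from 59.7 and 59.6 CPM to 97.7 and 88.9 CPM. *Socs2*, *Socs3* and *Cish*, feedback inhibitors of the pathway, also rose, with log2 fold changes of 1.36, 0.91 and 1.24, although *Socs3* missed the threshold without MIZ-1 WT replicate 1 and *Cish* without MIZ-1 WT replicate 2. *Il9* itself had 0 counts in all 4 libraries, with the same upper limit as for *Hba-x*.

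Per length, *Il9r* can be set beside other receptor chains that use or resemble users of the gamma chain. In CPM per kb, *Il4ra* had 92.3 ± 3.30 in MIZ-1 WT against 58.0 ± 2.19 in MIZ-1 △POZ (SD, n = 2 each), *Il2rg* 68.5 ± 0.0118 against 54.8 ± 2.64, and *Il21r* 59.9 ± 1.87 against 46.1 ± 1.47. *Il9r*, itself selected for its rise, was therefore below all of these in MIZ-1 WT (28.3) and above all of them in MIZ-1 △POZ (144). The genes compared are the 3 of the list that fell, and levels per length of the other listed receptor genes are not given here. Of the 9 listed receptor genes, all tested, 2 rose (*Il13ra1* and *Il15ra*) and 3 fell (*Il4ra*, *Il21r* and *Il2rg*), or 1 to 3 and 2 to 3 with each library left out in turn, and *Il15ra* missed the threshold without MIZ-1 WT replicate 2. Over all tested genes 21.1% rose and 18.9% fell.

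For iRhom1, the nearest relative and the protease it serves had other values than *Rhbdf1*. *Rhbdf2*, which encodes iRhom2, had 66.2 and 63.7 CPM in MIZ-1 WT and 52.2 and 55.7 CPM in MIZ-1 △POZ, a fall by 0.27 on the log2 scale (adjusted p = 0.0166, edgeR quasi-likelihood test with Benjamini-Hochberg adjustment) that missed the threshold without either MIZ-1 WT library. Per length, *Rhbdf2* was at 12.3 ± 0.332 CPM per kb in MIZ-1 WT against 10.2 ± 0.458 in MIZ-1 △POZ (SD, n = 2 each), so *Rhbdf1* was the lower of the pair in MIZ-1 WT (3.56) and the higher in MIZ-1 △POZ (13.3). *Adam17*, named after its values were seen, had 239 and 227 CPM in MIZ-1 WT and 227 and 227 CPM in MIZ-1 △POZ. Of 20 genes of iRhoms, ADAM17 and its substrates, 15 were tested, 5 rose and 2 fell (2 to 5 and 1 to 2 with each library left out in turn), against 21.1% and 18.9% over all tested genes, with a median log2 fold change of -0.04. *Tnfrsf1b* and *Tnfrsf1a*, receptors of TNF that ADAM17 sheds, rose by log2 fold changes of 0.57 and 1.79, while *Tnf* fell by 0.55 on the log2 scale and missed the threshold without MIZ-1 WT replicate 1. The substrate genes *Areg* and *Ereg* had 0 counts in all 4 libraries.

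Lists of functional partners of the remaining neighbors are read beside the 21.1% of all tested genes that rose and the 18.9% that fell. Of 19 base excision repair genes, all tested, 8 rose and 2 fell (5 to 7 and 1 to 2 with each library left out in turn), and the median log2 fold change was -0.0077. The glycosylase genes *Neil3* and *Neil1* had log2 fold changes of 1.70 and 0.88, beside the 0.52 of *Mpg*, and *Smug1*, another glycosylase, fell by 0.49 on the log2 scale. The most abundant gene of this list, *Parp1*, had 592 and 601 CPM in MIZ-1 WT and 548 and 554 CPM in MIZ-1 △POZ. Of 26 genes of GATOR complexes and amino acid sensing, 25 were tested, 3 rose and 5 fell (1 to 2 and 2 to 9 with each library left out in turn). *Sesn2*, a leucine sensor, rose from 8.89 and 7.57 CPM to 16.3 and 15.3 CPM, which is 0.94 on the log2 scale. *Nprl2*, whose product binds that of *Nprl3* within GATOR1, had 34.7 and 33.9 CPM in MIZ-1 WT and 25.6 and 23.8 CPM in MIZ-1 △POZ and fell by 0.47 on the log2 scale (adjusted p = 0.00494, edgeR quasi-likelihood test with Benjamini-Hochberg adjustment). Of 10 genes for proteins of the minor spliceosome, all tested, none rose and 3 fell (*Snrnp48*, *Zrsr2* and *Rnpc3*, each of which missed the threshold without either MIZ-1 WT library and without MIZ-1 △POZ replicate 2), whereas *Snrnp25* rose.

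Counts of markers of other cells are read beside the 21.1% of all tested genes that rose and the 18.9% that fell. All 16 macrophage markers rose (15 or 16 with each library left out in turn), and they summed to 980 and 1305 CPM in MIZ-1 WT and to 5839 and 3650 CPM in MIZ-1 △POZ, led by *Vcam1*, with no marker at 0. Mast cell markers, of which 4 of 8 were tested and none passed the threshold, summed to 3.44 and 3.26 CPM in MIZ-1 WT and to 3.55 and 3.87 CPM in MIZ-1 △POZ, led by *Kit*. The mast cell gene *Fcer1a* had 0 counts in 3 libraries and 2 counts in the other.

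Among B cell subset markers, where the same shares of 21.1% and 18.9% over all tested genes apply, all 9 tested marginal zone markers rose (7 to 9 with each library left out in turn), with sums of 3259 and 3248 CPM in MIZ-1 WT and 4192 and 4490 CPM in MIZ-1 △POZ, led by *Cr2*, and *Sox7* had 0 counts in all 4 libraries. Of 8 germinal center markers 7 rose and *Bcl6*, the most abundant in MIZ-1 WT, fell, with sums of 175 and 181 CPM against 326 and 270 CPM. Plasma cell markers (6 of 8 rose) summed to 772 and 1103 CPM against 2519 and 2361 CPM, led by *Jchain*. B-1 cell markers (6 of 8 rose, 2 to 6 with each library left out) summed to 107 and 136 CPM against 190 and 176 CPM, led by *Ptpn22*. Memory B cell markers (4 of 6 rose, 2 to 4 with each library left out) summed to 504 and 452 CPM against 553 and 544 CPM, led by *Cd38*. Of 7 tested follicular markers, 4 fell (3 or 4 with each library left out) and none rose. Of the 12 pan-B cell markers, 8 fell (2 to 7 with each library left out) and 1 rose (*Cr2*). The rise of *Cr2* missed the threshold without either MIZ-1 WT library and without MIZ-1 △POZ replicate 2. The largest fall among the pan-B cell markers was that of *Cd79a*, with 336 and 311 CPM in MIZ-1 WT and 103 and 135 CPM in MIZ-1 △POZ (log2 fold change -1.44). MB1-Cre is made under control of this gene, and the part of the Cre allele in its level was not tested. The part of any of these cell types in the levels of *Il9r*, *Rhbdf1*, *Snrnp25* and *Mpg* was not tested.

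Against the same 21.1% and 18.9% of all tested genes, T cell markers (2 of 12 rose) summed to 86.5 and 67.5 CPM in MIZ-1 WT and to 88.5 and 96.4 CPM in MIZ-1 △POZ, led by *Lck*. NK cell markers (1 of 7 rose) summed to 48.9 and 50.3 CPM against 51.0 and 55.6 CPM, led by *Gzma*. Plasmacytoid dendritic cell markers (1 of 6 fell, a count that changed with the library left out) summed to 1070 and 992 CPM against 850 and 880 CPM. Most of this sum was *Ly6d*, the marker that fell, with 794 and 738 CPM against 580 and 623 CPM. *Siglech* had 45.0 and 45.5 CPM against 42.0 and 26.4 CPM and did not pass the threshold. Neutrophil markers (2 of 7 tested rose, 0 to 2 with each library left out) summed to 15.1 and 4.83 CPM against 9.35 and 17.9 CPM, led by *S100a9*, and those of megakaryocytes and platelets (1 of 3 tested rose, none with any library left out) to 1.65 and 1.86 CPM against 1.95 and 1.91 CPM, led by *Itga2b*, with *Gp1bb* at 0 counts in all 4 libraries.

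Promoter sequences from RefSeq (GRCm38.p6, 250 bases before to 50 after each start) were found for 7 of the 8 genes, all but *Rhbdf1*. Each was searched on both strands for GATAA, the core bound by GATA factors, and CACGTG, an E-box, and, chosen after the sequences were seen, for CCAAT and TATAAA. On the other strand GATAA reads as TTATC, while CCAAT reads as ATTGG and TATAAA as TTTATA, and the E-box reads the same. Of the 32851 promoters of the table, 25.4% hold GATAA, with CCAAT in 37.4%, TATAAA in 13.6% and CACGTG in 7.15%. *Il9r* held GATAA 3 times, and *Snrnp25*, *Hba-x*, *Hba-a1* and *Hba-a2* each held it 1 time. CCAAT occurred 3 times in *Snrnp25*, 2 times in *Mpg* and 1 time in each of *Hba-a1* and *Hba-a2*, TATAAA 1 time in *Nprl3* and in *Hba-x*, and CACGTG in none of the 7. A match describes letters only and does not show that a factor is bound.

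The stretch before the GENCODE start of *Il9r* (chr11:32200280-32200529, minus strand) is shown because *Il9r* had the highest level of the row in MIZ-1 △POZ, with GATAA on either strand in capitals.

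Il9r upstream: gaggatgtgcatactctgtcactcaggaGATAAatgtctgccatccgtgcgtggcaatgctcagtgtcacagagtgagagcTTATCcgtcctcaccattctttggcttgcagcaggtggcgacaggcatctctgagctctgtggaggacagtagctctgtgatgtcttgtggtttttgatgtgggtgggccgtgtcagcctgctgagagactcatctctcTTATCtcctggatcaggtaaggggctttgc

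The *Il9r* promoter of the table, and thus its motif counts, belong to this start. In RefSeq the *Il9r* gene extends further, to 32205283, which leaves 131 bases before the start of *Snrnp25* at 32205415. This stretch (chr11:32205284-32205414, plus strand) is shown because 2 genes that were both higher in MIZ-1 △POZ would point away from it, with CCAAT on either strand in capitals. The 3 matches in it are those counted for *Snrnp25* above.

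Il9r to Snrnp25: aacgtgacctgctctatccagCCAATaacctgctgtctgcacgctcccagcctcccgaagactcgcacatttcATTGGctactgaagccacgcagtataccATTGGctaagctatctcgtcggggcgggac

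The stretch before *Hba-a2* (chr11:32296242-32296488, plus strand) is shown for the globin end of the row, with GATAA and CCAAT in capitals. The RefSeq promoters of *Hba-a1* and *Hba-a2* were identical over 297 aligned bases, so the sequence of *Hba-a2* stands for both.

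Hba-a2 upstream: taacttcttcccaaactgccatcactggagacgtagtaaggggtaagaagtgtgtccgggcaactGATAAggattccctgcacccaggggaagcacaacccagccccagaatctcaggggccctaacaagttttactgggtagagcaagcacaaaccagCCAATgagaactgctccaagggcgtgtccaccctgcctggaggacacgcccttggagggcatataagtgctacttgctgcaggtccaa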

How the data were processed

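Raw counts for 4 libraries, with Ensembl identifiers, are those the authors deposited. They had made them from paired reads of stranded, ribosome-depleted libraries, trimmed with Trimmomatic, mapped to mm10 with TopHat2 (version 2.1.0 in the submitters' processing notes, another in the paper's methods) and counted with HTSeq. The Ensembl release and the strand setting of the counting were not given in the sources used here. Samples were grouped by labelled genotype. Of 41214 genes, 40340 matched GENCODE M21 (GRCm38). Summary lines of the counting entered neither library sizes nor tests. Their share for reads outside genes was 27.2% and 25.5% for the MIZ-1 WT libraries and 21.6% and 21.1% for the MIZ-1 △POZ libraries.

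The 14554 genes that reached 10 counts in 2 or more libraries were tested with edgeR 4.0.16 in R 4.3.3, with TMM factors from 0.977 to 1.03, the quasi-likelihood test and adjustment by Benjamini-Hochberg across these genes, at a threshold of 0.05. With 2 libraries per genotype, p-values rest on spread shared across genes. Log2 CPM used a prior count of 2. The procedure was tested on simulated counts, from which no value is reported here. Alternatives were the size factors of DESeq2 1.42.0 within edgeR, its Wald test, no filter, filterByExpr, a replicate block, removal of haemoglobin and immunoglobulin genes, summed alpha-globin copies and each library left out. A length in 50-base words unique to a gene, from its longest annotated transcript, was added after the data were seen.

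The 8 genes, the partner lists (IL-9 receptor signaling, gamma chain and related receptors, iRhoms and ADAM17, base excision repair, GATOR, minor spliceosome, beta-globin locus, sex-linked genes) and 15 marker lists were chosen with earlier results of these data known. Named genes were the 8, the window genes past the threshold, up to 6 per list by smallest p among those past it, the most abundant gene of most lists, any defining marker at 0, and the 5 nearest profiles to *Il9r* and to *Rhbdf1*. *Adam17*, *Hbb-bt*, *Fcer1a*, *Ubtd2*, *Nsg2*, *Hbq1a* and *Hbq1b* were named after their values were seen. Floors of 3 counts cover counting error only.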

Additional observations from a re-analysis of the deposited data

How the results depend on the processing

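The log2 fold changes of *Il9r* ranged from 2.28 to 2.42 and those of *Rhbdf1* from 1.81 to 2.00 over all alternatives. *Snrnp25* (0.80 to 1.16) and *Mpg* (0.47 to 0.57) passed the threshold in every alternative run, and *Nprl3* (0.05 to 0.17) in none. Leaving out each library leaves 1 library in a genotype, which is then assumed to vary like the other genotype. The genes that rose then numbered 1374 to 2955 and those that fell 848 to 2626, and fewer samples are a part of that by construction. With each library left out, 0 to 1 window genes outside the 8 fell, 2 to 4 of the genes selected by position rose, and 58 to 84 list genes rose and 18 to 38 fell, against 82 and 36 with all libraries. The log2 fold change reversed without 1 library for *Hba-a1* (-0.40 to 1.19), *Hba-a2* (-0.46 to 1.28), *Hbb-bs* (-0.48 to 1.02), *Hbb-bt* (-0.55 to 0.86), *Jak1* (-0.15 to 0.016) and *Sesn1* (-0.0078 to 0.27), and the cause was not tested. Many of the genes followed here were named for a small p in these same libraries, and many alternatives reuse all 4 libraries. The count of kept calls below follows in part from that choice and is no separate check. Over 57 tested genes, without *Il9r* and *Rhbdf1*, and 621 combinations of gene and alternative, 563 kept direction and side of the threshold, 48 lost the call, 4 gained it and 6 reversed.

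The samples share only a replicate number, and the deviations of same-numbered libraries from their genotype means had a correlation of -0.0688. With the replicate number as a block, 2633 genes rose and 2099 fell, 0 window genes outside the 8 fell, and 2 genes selected by position rose. The Wald test of DESeq2 gave 2668 genes that rose and 2414 that fell. The block gave 2.35 for *Il9r* and 1.91 for *Rhbdf1*.

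Per kb counted in words of 50 bases unique to the gene, a length added after the data were seen, levels in MIZ-1 △POZ were 162 for *Il9r*, 61.3 for *Snrnp25*, 14.4 for *Rhbdf1*, 20.8 for *Mpg*, 13.0 for *Nprl3*, 23.2 for *Hba-a1* and 51.5 for *Hba-a2* CPM. This places *Mpg* above *Rhbdf1*, so the order per length depends on the length used. The words come from the longest annotated transcript of each gene in place of its merged exons, so the change is not one of unique sequence alone. *Hba-a1* had 11.5 in MIZ-1 △POZ replicate 1 and 34.9 in replicate 2, and *Hba-a2* 23.6 and 79.4, so the place of both depends on the library. It also rests on only 211 and 66 unique words set against counts of the whole gene, a length that can be too short for paired reads. The planned uniquely mappable length of the genome was not run. Removing haemoglobin genes gives no value for the globins.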
